A study of Equus caballus with 10 samples.

Results

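The IRAK kinases and the proteins that pass their signal on were followed here as 10 genes, namely MYD88, IRAK4, IRAK1, IRAK2, IRAK3, TRAF6, PELI1, TAB2, MAP3K7 and TOLLIP. They were chosen by symbol, as the pathway of the kinase that was inhibited in the study, with earlier results of these data known. All 10 were found among the 29196 genes of the table, and all 10 were above the value of 0 reads in every library and were tested. RNA was sequenced from primary tendon cells (tenocytes) of 5 adult horses, grown for 14 days in 3D collagen gels. Each donor gave 1 library to each of 2 groups, so that each group held 5 libraries. In the first group (PF alone) the cells received the IRAK-4 inhibitor PF-06650833 daily at 100 nM. In the second (PF + IL-1β) they received the same inhibitor in the same way and, in addition, IL-1β at 17 ng/ml with the changes of medium. Both groups therefore carried the inhibitor, and the comparison shows what IL-1β changed in its presence. Libraries without the inhibitor were not analysed here, so no value below measures what the inhibitor does by itself.

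When IL-1β binds its receptor, the adaptor protein MyD88 is drawn to the receptor tails and assembles with IRAK kinases into a complex called the Myddosome. IRAK4 enters first and activates IRAK1 or IRAK2, which bind the ubiquitin ligase TRAF6. Ubiquitin chains then recruit TAB2 and the kinase TAK1, the product of MAP3K7, which switches on the IκB kinases and the MAP kinases and so NFκB and AP-1. IRAK3 (also called IRAK-M) and TOLLIP restrain the pathway, and PELI1 is a ubiquitin ligase that acts on IRAK proteins.

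The deposited values are variance-stabilized log2 values, on which a gene with 0 reads has the value 3.433. Estimated depth was 26451199 to 35791598 reads in the PF alone libraries and 26732899 to 33430833 reads in the PF + IL-1β libraries. The 10 genes rested on 291 (IRAK3) to 7479 (IRAK1) estimated reads in a library, for which counting error alone is 5.86% and 1.16%. The labelled cell type was checked by its markers. SCX, MKX and COL1A1 were above the value of 0 reads in all libraries, whereas TNMD, the gene of tenomodulin, was at that value in all 10. Of 10 leukocyte and macrophage markers, CD3E, MS4A1 and AIF1 were at that value in all libraries, and PTPRC and CSF1R were above it in 1 library each. CD68, ITGAM and LYZ were above it in all 10, CD14 in 6 and CD163 in 3. Of 8 tested tenocyte markers, SCX, MKX and TNC fell with IL-1β, by the rule for differential expression given below, and of 6 pericyte and smooth muscle markers, RGS5, CSPG4 and DES fell. Among all tested genes 3.57% were lower by this rule. With a replicate block (the donor as a term) COL1A1, COL1A2 and ACTA2 were lower too, which made 5 of 8 and 4 of 6, against 4.25% of all tested genes. The adjusted p of TNC was 0.0569 without donor 5, and that of RGS5 0.0540, 0.0563 and 0.0660 without donors 1, 2 and 5. The tenocyte marker DCN was 1.01 higher on the log2 scale (limma adjusted p = 0.268), in 5 of 5 donors, and the pericyte marker MCAM 0.34 higher, in 2 of 5 donors, and neither passed the test. The 6 pericyte and smooth muscle markers summed to between 19731 and 173153 normalized counts with PF alone and to between 27554 and 63962 with PF + IL-1β, and 6 endothelial markers to between 16.3 and 50.4 and between 5.12 and 30.7. The part of other cell types in the results below was not tested. In the text that follows, a gene is called differentially expressed at an adjusted p below 0.05 (limma, Benjamini-Hochberg over 17992 tested genes) and a log2 fold change (Log2FC) of 1 or more in either direction. Fold changes are those of PF + IL-1β against PF alone, and SE is their standard error.

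Of the 10 genes, IRAK2 and IRAK3 were differentially expressed, and both rose with IL-1β. IRAK2 was 3.62-fold and IRAK3 2.06-fold higher, while the fold change of the other 8 genes stayed under the minimum. Of all tested genes, 6.68% were differentially expressed, 3.11% higher and 3.57% lower. Without the minimum fold change, MAP3K7 (lower) and PELI1 (higher) also passed at an adjusted p below 0.05, which 15.5% of all tested genes did. With the replicate block the same 2 genes were differentially expressed, against 8.26% of all tested genes, and 5 of the 10 passed without the minimum fold change, against 22.2%. In 5 of the 10 genes (IRAK1, IRAK2, IRAK3, MAP3K7 and PELI1) the groups did not overlap, against 12.7% of all tested genes. In 7 genes the difference had the same sign in all 5 donors, against 32.7% of all tested genes. The median Log2FC of the 10 genes was 0.01, beside -0.01 for all tested genes, and the median absolute Log2FC was 0.32, beside 0.25.

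**Figure D1:**
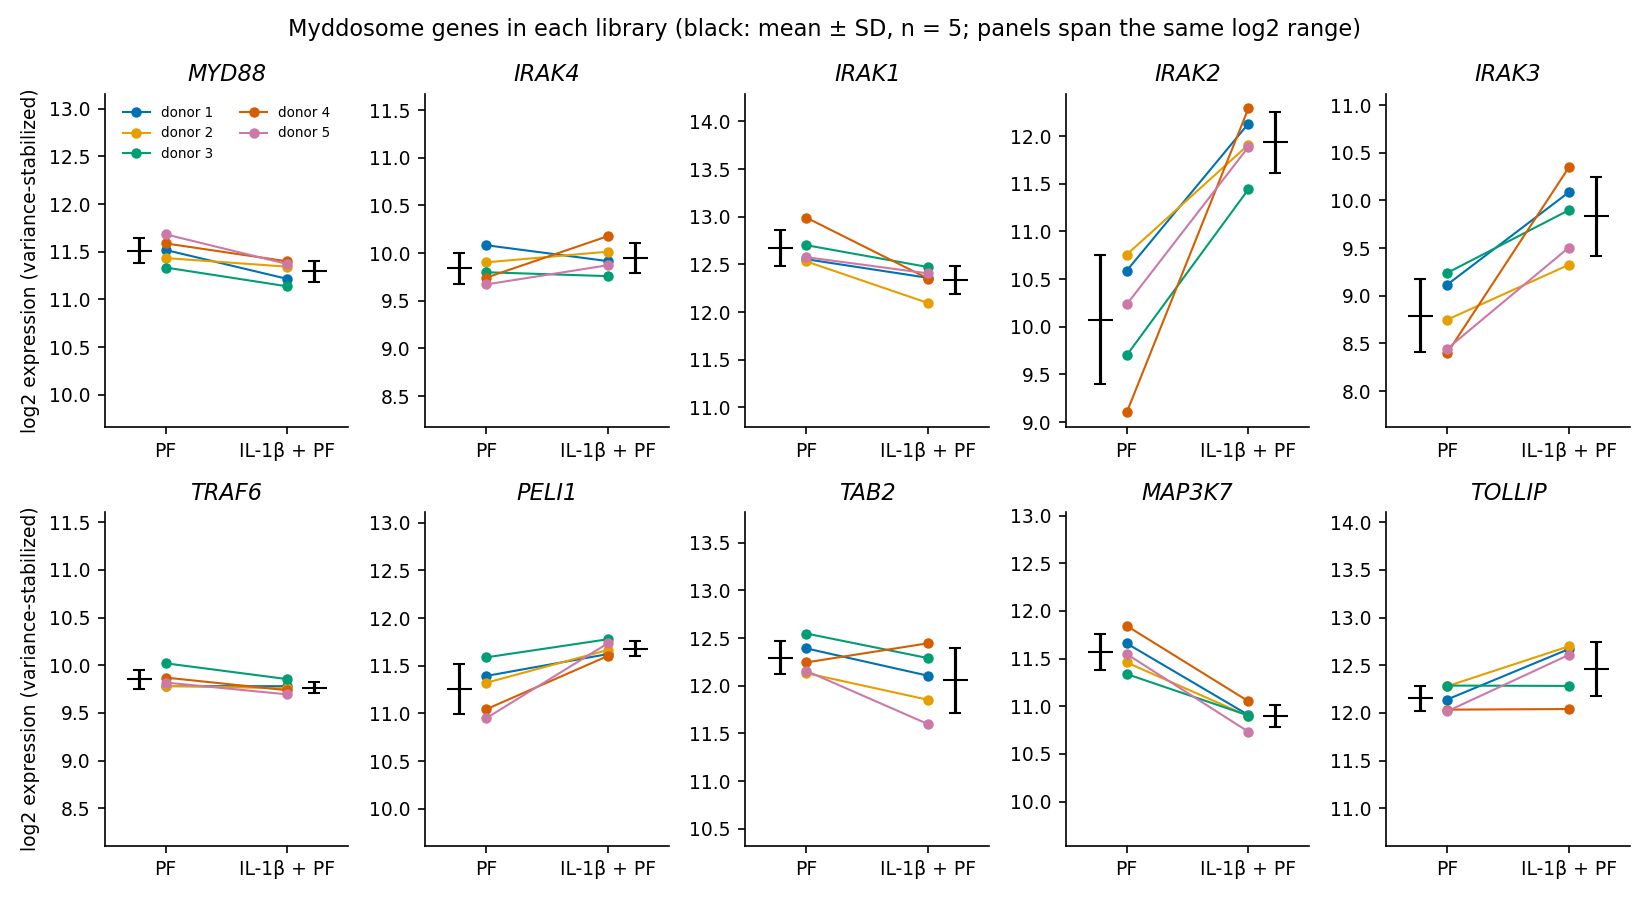
Log2 expression (variance-stabilized, vertical axis) of the 10 genes with PF alone (PF) and with PF + IL-1β. Points joined by a line are the 2 libraries of a donor, and black bars are the mean ± SD of 5 libraries; every panel spans the same log2 range, with its own centre. IRAK2 and IRAK3 climb in all 5 donors, MAP3K7 goes down in all 5, and TRAF6 lies almost flat. IRAK4 goes up in 3 donors and down in 2, with the largest difference in donor 4 (0.44).

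IRAK2, which can take the place of IRAK1 beside IRAK4 and engages TRAF6, showed the largest difference of the 10 genes. With PF alone its log2 expression was 10.59, 10.76, 9.70, 9.10 and 10.23 in donors 1 to 5. With PF + IL-1β it was 12.13, 11.91, 11.44, 12.29 and 11.89. Every library with IL-1β was above every library without it, and the donors lay closer together with IL-1β. The mean went from 10.08 ± 0.68 (SD, n = 5) to 11.93 ± 0.32 (SD, n = 5). This was a Log2FC of 1.86 (SE 0.29, 95% confidence interval 1.22 to 2.50, limma adjusted p = 0.00218). Only 275 of the tested genes had a larger increase. Donor 4 had the lowest IRAK2 of all with PF alone and the highest with IL-1β, so that its difference was 3.19, whereas those of the other donors lay between 1.15 and 1.74. Without donor 4 the Log2FC was 1.52 and IRAK2 was still differentially expressed (limma adjusted p = 0.00401). In the RefSeq gene table of another horse assembly the span of IRAK2 overlaps that of VHL, a gene of oxygen sensing, whose Log2FC was 0.45 (limma adjusted p = 0.0181). Whether reads were shared between these genes was not tested.

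IRAK3 encodes a kinase-like protein without normal catalytic activity, which is known as a brake on the Myddosome and is itself induced by its signals. Its log2 expression in donors 1 to 5 was 9.12, 8.75, 9.24, 8.40 and 8.44 with PF alone, and 10.09, 9.32, 9.90, 10.35 and 9.51 with PF + IL-1β. The groups did not overlap, although the lowest library with IL-1β, that of donor 2, was only slightly above the highest without it, that of donor 3. The mean went from 8.79 ± 0.38 (SD, n = 5) to 9.83 ± 0.42 (SD, n = 5). The Log2FC was 1.04 (SE 0.23, 95% confidence interval 0.54 to 1.55, limma adjusted p = 0.0117), close to the minimum of 1. It was again largest in donor 4, at 1.95, and smallest in donor 2, at 0.58. Leaving out the donor 4 library of either group (0.95 with PF alone and 0.92 with IL-1β), the donor 5 library with PF alone (0.96), the donor 1 library with IL-1β (0.98) or both libraries of donor 4 (0.82) took IRAK3 under the minimum fold change. The adjusted p from limma stayed below 0.05 in these 5 fits, with a highest value of 0.0409.

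IRAK3 is best known from monocytes and macrophages, so the leukocyte markers stand beside it. Summed over the 10 markers, their normalized counts ranged from 63.3 to 1769 with PF alone and from 172 to 1944 with PF + IL-1β. CD14 and CD68, which fibroblasts can also express, made up most of these sums, and without them the other 8 markers summed to between 6.42 and 32.6 and between 2.30 and 37.5. Of 4 tested leukocyte and macrophage markers, 1 was differentially expressed, against 6.68% of all tested genes. This was CD68, with a Log2FC of 1.70 (limma adjusted p = 0.00795), and its groups did not overlap. Without donor 5 the adjusted p of CD68 was 0.0527. ITGAM had a Log2FC of 0.37 (limma adjusted p = 0.568), higher in 3 donors and lower in 2. LYZ had one of -0.14 (limma adjusted p = 0.572), higher in 2 donors and lower in 3. CD14 had a Log2FC of 2.66 (limma adjusted p = 0.340) and did not pass the test. It was at the value of 0 reads in donors 3, 4 and 5 with PF alone. With PF + IL-1β it was at 8.75 in donor 4 and at 10.27 in donor 5, but still at the value of 0 reads in donor 3. The log2 difference in CD14 was 0.02, 1.13, 0, 5.32 and 6.84 in donors 1 to 5, beside differences in IRAK3 of 0.97, 0.58, 0.66, 1.95 and 1.06. In bulk RNA a change in the share of a cell type and a change in RNA per cell cannot be told apart.

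IRAK4, the kinase that PF-06650833 inhibits, differed little in mRNA level between the groups. Its log2 expression in donors 1 to 5 was 10.08, 9.90, 9.80, 9.74 and 9.67 with PF alone, and 9.92, 10.01, 9.76, 10.18 and 9.87 with PF + IL-1β. The ranges overlapped almost completely, and the value was higher with IL-1β in 3 donors and lower in 2. The Log2FC was 0.11 (SE 0.11, limma adjusted p = 0.571). Its 95% confidence interval, -0.14 to 0.35, leaves out a change of the minimum size in either direction. These are mRNA levels, and the activity of the kinase was not measured by them. The span of IRAK4 overlaps that of PUS7L in the RefSeq table, whose Log2FC was -0.06 (limma adjusted p = 0.736).

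IRAK1, the other substrate kinase of IRAK4, was lower with IL-1β by a small amount. Its values in donors 1 to 5 were 12.55, 12.53, 12.70, 12.99 and 12.58 with PF alone, and 12.36, 12.09, 12.47, 12.35 and 12.41 with IL-1β. The groups did not overlap, with 12.53 as the lowest value on one side and 12.47 as the highest on the other. The Log2FC was -0.33 (SE 0.11, limma adjusted p = 0.0653), and 0.0433 once the donor was entered as a replicate block. The Log2FC was under the minimum in either fit.

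Since IRAK1 and IRAK2 occupy the same place after IRAK4, their log2 difference within a library was compared between the groups. This measure depends little on how libraries were scaled. IRAK2 minus IRAK1 was -1.97, -1.77, -3.00, -3.89 and -2.34 in donors 1 to 5 with PF alone. It was -0.23, -0.18, -1.03, -0.06 and -0.52 with PF + IL-1β. These values are not corrected for transcript length, so that only their change, and not their sign, can be read. IRAK2 rose against IRAK1 in all 5 donors, by 2.19 on the log2 scale or 4.57-fold (exact two-sided permutation test, p = 0.00794, n = 5 in each group, the smallest p that this design allows). An exact sign-flip test over the 5 donors gave p = 0.0625, again the smallest possible. The groups of IRAK2 and of IRAK1 were already apart in opposite directions, and in all 5 donors. Both p-values were therefore fixed by the values of the 2 genes given above, and they add no further evidence.

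**Figure D2:**
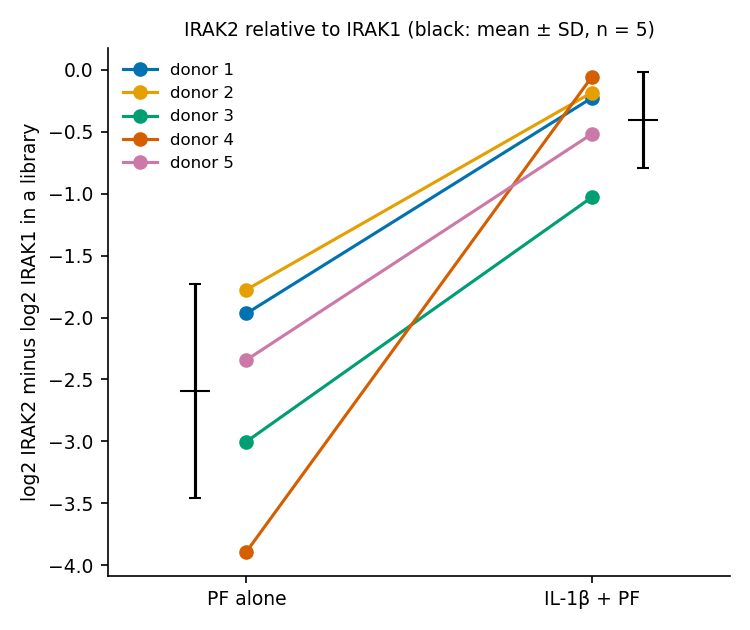
Log2 expression of IRAK2 minus that of IRAK1 within each library (vertical axis) with PF alone and with PF + IL-1β. Lines join the libraries of a donor and black bars are the mean ± SD (-2.60 ± 0.86 and -0.40 ± 0.39, n = 5). All 5 lines rise, by 1.59 to 3.83.

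MYD88, the adaptor on which the complex is built, was slightly lower with IL-1β in all 5 donors, but the groups overlapped. With PF alone it lay between 11.33 and 11.68, with a median of 11.52, and with IL-1β between 11.14 and 11.40, with a median of 11.34. The Log2FC was -0.22 (SE 0.09, limma adjusted p = 0.131), and the differences within donors ran from -0.31 to -0.09. TRAF6, the ubiquitin ligase next in line, had the smallest spread of the 10 genes, with a mean of 9.86 ± 0.10 (SD, n = 5) and of 9.77 ± 0.06 (SD, n = 5). Its Log2FC was -0.09 (95% confidence interval -0.28 to 0.10, limma adjusted p = 0.533). Although the sign was negative in all 5 donors, the difference in donor 1 was only -0.00056. PRR5L, whose span overlaps that of TRAF6 in the RefSeq table, had a Log2FC of -0.85 (limma adjusted p = 0.0370).

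MAP3K7, which encodes TAK1, had the smallest adjusted p of the 10 genes, with a modest difference. Its log2 expression in donors 1 to 5 was 11.66, 11.46, 11.34, 11.84 and 11.55 with PF alone, and 10.91, 10.90, 10.90, 11.05 and 10.73 with PF + IL-1β. The groups did not overlap, and the libraries with IL-1β lay within a narrow range. The mean went from 11.57 ± 0.19 (SD, n = 5) to 10.90 ± 0.11 (SD, n = 5). This was a Log2FC of -0.67 (SE 0.10, 95% confidence interval -0.90 to -0.44, limma adjusted p = 0.00215). The Log2FC was under the minimum, so MAP3K7 was not counted as differentially expressed. TAB2, the adaptor that links TAK1 to ubiquitin chains, had a Log2FC of -0.24 (SE 0.16, limma adjusted p = 0.354), and of -0.12 without the donor 5 library with IL-1β. It was lower with IL-1β in 4 donors and higher by 0.20 in donor 4, and the groups overlapped.

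The patterns most like that of MAP3K7, by the root mean square distance of the 5 differences within donors, were those of PLXNB3 (distance 0.070), SRR (0.078) and MCU (0.078), out of 13864 genes with a symbol. MCU, which encodes the pore of the mitochondrial calcium uniporter, had a Log2FC of -0.68 (limma adjusted p = 0.00186). SRR, the gene of serine racemase, had one of -0.65 (adjusted p = 0.0205), and PLXNB3, a plexin receptor gene, one of -0.71 (adjusted p = 0.0671, and 0.0186 with the replicate block). The distances are over 5 donors and are given as a description.

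PELI1, the ubiquitin ligase that acts on IRAK proteins, was higher with IL-1β by an amount under the minimum fold change. Its values in donors 1 to 5 were 11.39, 11.32, 11.59, 11.04 and 10.95 with PF alone, and 11.62, 11.66, 11.78, 11.60 and 11.73 with PF + IL-1β. The groups met without overlapping, the highest library without IL-1β being that of donor 3. PELI1 had a Log2FC of 0.42 (SE 0.12, limma adjusted p = 0.0360). Refitted 15 times, each time without 1 library or 1 donor, PELI1 had an adjusted p of 0.05 or more in 11 fits, up to 0.148 without donor 5. The SD between donors was 0.26 with PF alone and 0.07 with IL-1β. TOLLIP, which binds IRAK1 and ubiquitin and dampens receptor signalling, separated the donors. Its difference was 0.53, 0.42 and 0.59 in donors 1, 2 and 5, but -0.0036 in donor 3 and 0.01 in donor 4. For TOLLIP it averaged 0.31 (SE 0.13, limma adjusted p = 0.152), and the groups overlapped.

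**Figure D3:**
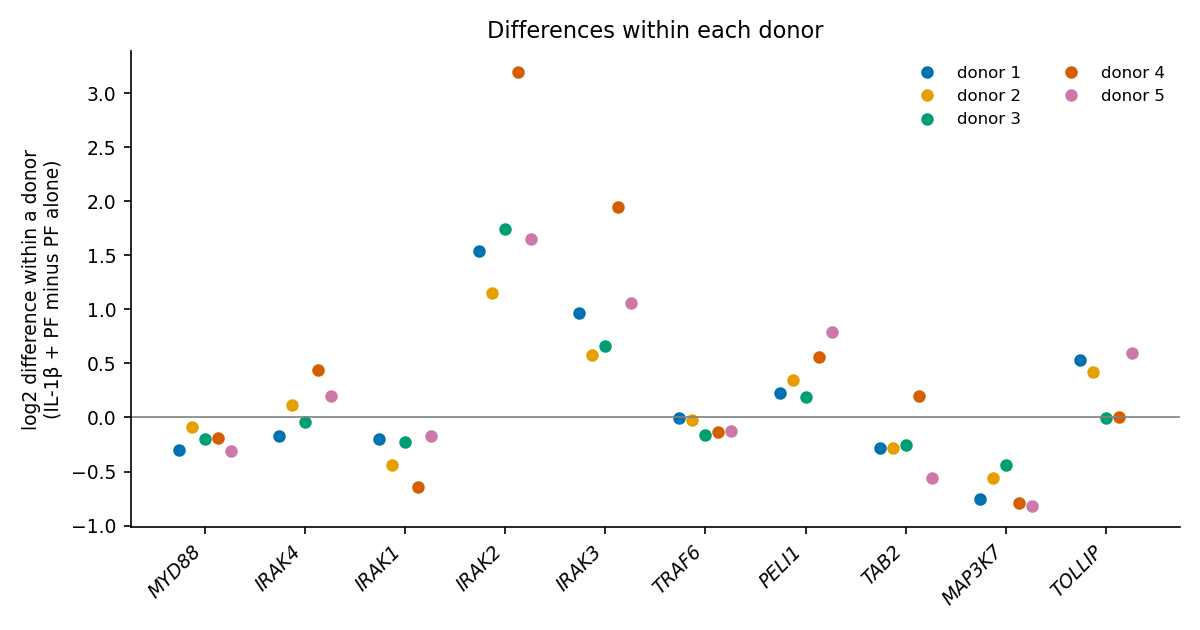
Log2 difference within each donor (PF + IL-1β minus PF alone, vertical axis) for the 10 genes, with 1 point per donor. Donor 4 stands highest for IRAK2 (3.19), IRAK3 (1.95), IRAK4 (0.44) and TAB2 (0.20), and lowest for IRAK1 (-0.64).

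The 10 genes differed in how far the donors kept their order between the groups. The part of the variation within groups that lay between donors ran from 46.1% (IRAK2) to 86.3% (MYD88), and the median of all tested genes was 66.1%. Libraries without any likeness within donors would give 50% on average. A value near 50%, as for IRAK2, is therefore no sign of a donor effect. For MYD88, donor 3 was lowest and donors 4 and 5 were highest in both groups, and for TRAF6 (80.5%) donor 3 was highest in both. For IRAK2 and IRAK3 (53.4%), donor 4 went from the lowest value with PF alone to the highest with PF + IL-1β. The replicate block changed the call of none of the 10 genes.

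**Figure D4:**
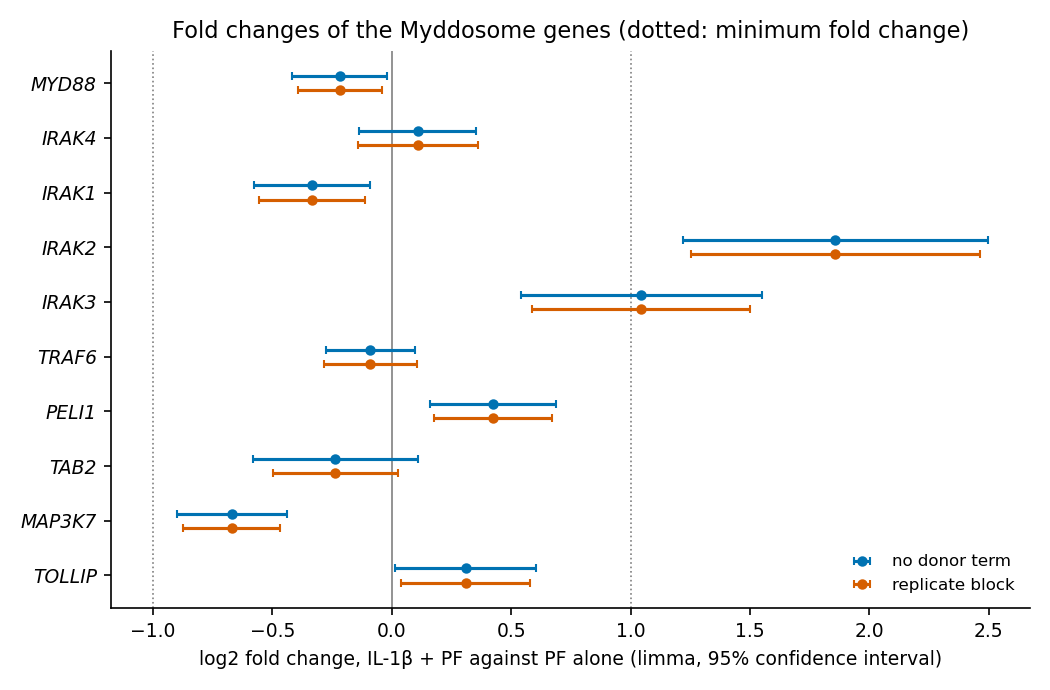
Log2 fold change of the 10 genes with PF + IL-1β against PF alone (horizontal axis), from limma without a donor term and with the replicate block. Bars are 95% confidence intervals and dotted lines the minimum fold change; only the interval of IRAK2 (1.22 to 2.50 without a donor term) lies wholly beyond it, and that of IRAK3 spans it.

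The surrounding pathway was described with 57 further genes in 6 lists, from the receptors to the IκB and MAP kinases and their inhibitors. Of these, 56 were in the table and 53 could be tested. Differential expression was found for 8 of the 53, with 7 higher and 1 lower, which is 15.1% against 6.68% of all tested genes. The median Log2FC of the 53 genes was 0.12. The 6 lists, too, were chosen with earlier results of these data known.

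At the receptor, 0 of 6 tested genes were differentially expressed by limma, against 6.68% of all tested genes. An unadjusted p below 0.05 was found for 2 (IL1R1 and IL1R2), against 29.7% of all tested genes. With the replicate block these were 5 of 6, against 36.2%. The count of 0 became 1 (IL1R2) on log2(normalized count + 1). IL1R1, the signalling receptor of IL-1β, had a mean of 11.70 ± 0.63 (SD, n = 5) with PF alone and of 12.46 ± 0.23 (SD, n = 5) with PF + IL-1β. Its Log2FC was 0.76 (SE 0.26, limma adjusted p = 0.0747, and 0.0466 with the replicate block), higher in 4 of 5 donors. IL1RAP, the accessory chain of the receptor, had a Log2FC of 0.33 (limma adjusted p = 0.466). Without the donor 3 library with PF alone it was 0.11. IL1R2, the gene of a decoy receptor, rested on 1 to 4 estimated reads in a library with PF alone and on 6 to 16 with PF + IL-1β, 14 and 58 reads in all. Per depth this was a ratio of 4.36 (exact 95% interval 2.40 to 8.46, for counting error only). The Log2FC of IL1R2 was 0.79 (limma adjusted p = 0.0137) on the variance-stabilized scale, which is compressed near the value of 0 reads. On log2(normalized count + 1) it was 1.85 (limma adjusted p = 0.0128), so that IL1R2 was then differentially expressed. On the variance-stabilized scale its adjusted p was 0.0586, 0.0618 and 0.0833 without donors 1, 2 and 5.

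Among 6 genes listed as Toll-like receptor adaptors or Myddosome partners, 1 was differentially expressed, against 6.68% of all tested genes. TICAM1, which encodes TRIF, the adaptor of the MyD88-independent branch of Toll-like receptor signalling, rose in all 5 donors. It was at 8.58, 8.93, 9.12, 8.74 and 8.65 with PF alone and at 9.90, 10.12, 9.89, 9.99 and 10.30 with PF + IL-1β, and the groups lay far apart. On the log2 scale TICAM1 rose by 1.24 (SE 0.13, limma adjusted p = 3.07e-04). TIRAP, which bridges MyD88 to some Toll-like receptors, had a Log2FC of -0.00404 (95% confidence interval -0.19 to 0.18). IRAK1BP1 was lower in 5 of 5 donors, with a Log2FC of -0.85 (limma adjusted p = 0.0380), under the minimum.

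Among 13 ubiquitin ligases, scaffolds and subunits of the TAK1 complex, 2 were differentially expressed, against 6.68% of all tested genes. SQSTM1 rose and PELI2 fell. SQSTM1, which encodes the scaffold and autophagy receptor p62, had a Log2FC of 1.10 (SE 0.24, limma adjusted p = 0.0101). PELI2, a paralogue of PELI1, had one of -1.12 (SE 0.28, limma adjusted p = 0.0219). It was lower with IL-1β in 4 donors and higher in donor 4, and the groups overlapped. Both calls depended on single libraries or donors. SQSTM1 was not counted without the donor 4 library with PF alone (0.97) or without both libraries of donor 1 (1.03, adjusted p = 0.0678) or donor 5 (0.95). PELI2 was not counted without the donor 1 (-1.02) or donor 2 library (-1.05) with PF alone, the donor 2 (-0.98) or donor 5 library (-0.93) with IL-1β, or without both libraries of donor 1 (-1.05), donor 2 (-0.91) or donor 5 (-0.96). TAB1 and TAB3, the other TAK1 partners, had Log2FC values of -0.04 and 0.07. Without the minimum fold change, 5 of the 13 passed at a limma adjusted p below 0.05, against 15.5% of all tested genes. SQSTM1, RBCK1 (0.37) and TRAF3 (0.48) were higher, and PELI2 and TRAF1 (-0.66) were lower.

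Of 5 genes of the IKK family, 1 was differentially expressed, against 6.68% of all tested genes. This was IKBKE, which rose from 9.80 ± 0.13 (SD, n = 5) to 11.11 ± 0.26 (SD, n = 5). Its Log2FC was 1.31 (SE 0.13, limma adjusted p = 1.90e-04). The gene encodes IKKε, a kinase of the interferon-inducing branch. The subunits of the classical IκB kinase, CHUK, IKBKB and IKBKG, had Log2FC values of 0.11, 0.06 and 0.07. TBK1 was higher in 5 of 5 donors, with a Log2FC of 0.45 (limma adjusted p = 0.00981), under the minimum. Of 10 genes of the MAP kinase arm, 0 were differentially expressed by limma, against 6.68% of all tested genes. An unadjusted p below 0.05 was found for 4 of them, against 29.7% of all tested genes, and 2 passed at an adjusted p below 0.05 without the minimum fold change, against 15.5%. These were MAPKAPK2 (Log2FC 0.50), a kinase downstream of p38, and MAPK9 (-0.49), which encodes a JNK.

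Among 13 inhibitors of the pathway, 4 were differentially expressed and all 4 rose. Of all tested genes, 6.68% were differentially expressed and 3.11% rose by this rule. ZC3H12A, which encodes the RNase regnase-1, had a Log2FC of 3.04 (SE 0.19, limma adjusted p = 1.78e-05). TNFAIP3, the gene of the ubiquitin-editing enzyme A20, rose by 2.42 (limma adjusted p = 0.00129) and NFKBIA, the gene of IκBα, by 1.64 (adjusted p = 1.07e-04). TNIP1, which encodes a partner of A20, rose by 1.03 (adjusted p = 0.00652) and was named after its value had been seen. TNIP1 was under the minimum fold change without both libraries of donor 2 (0.93), without the donor 2 library with IL-1β (0.85), without the donor 1 library with PF alone (0.98) and after quantile normalization (0.997). CYLD and OTULIN, which encode deubiquitinases, had Log2FC values of 0.18 and -0.03. Without the minimum fold change, 5 of the 13 passed at a limma adjusted p below 0.05, against 15.5% of all tested genes. Of these, 4 were higher and 1, OTUD7B, was lower (Log2FC -0.54, limma adjusted p = 0.0198). OTUD7B was lower in 5 of 5 donors, and its groups did not overlap.

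**Figure D5:**
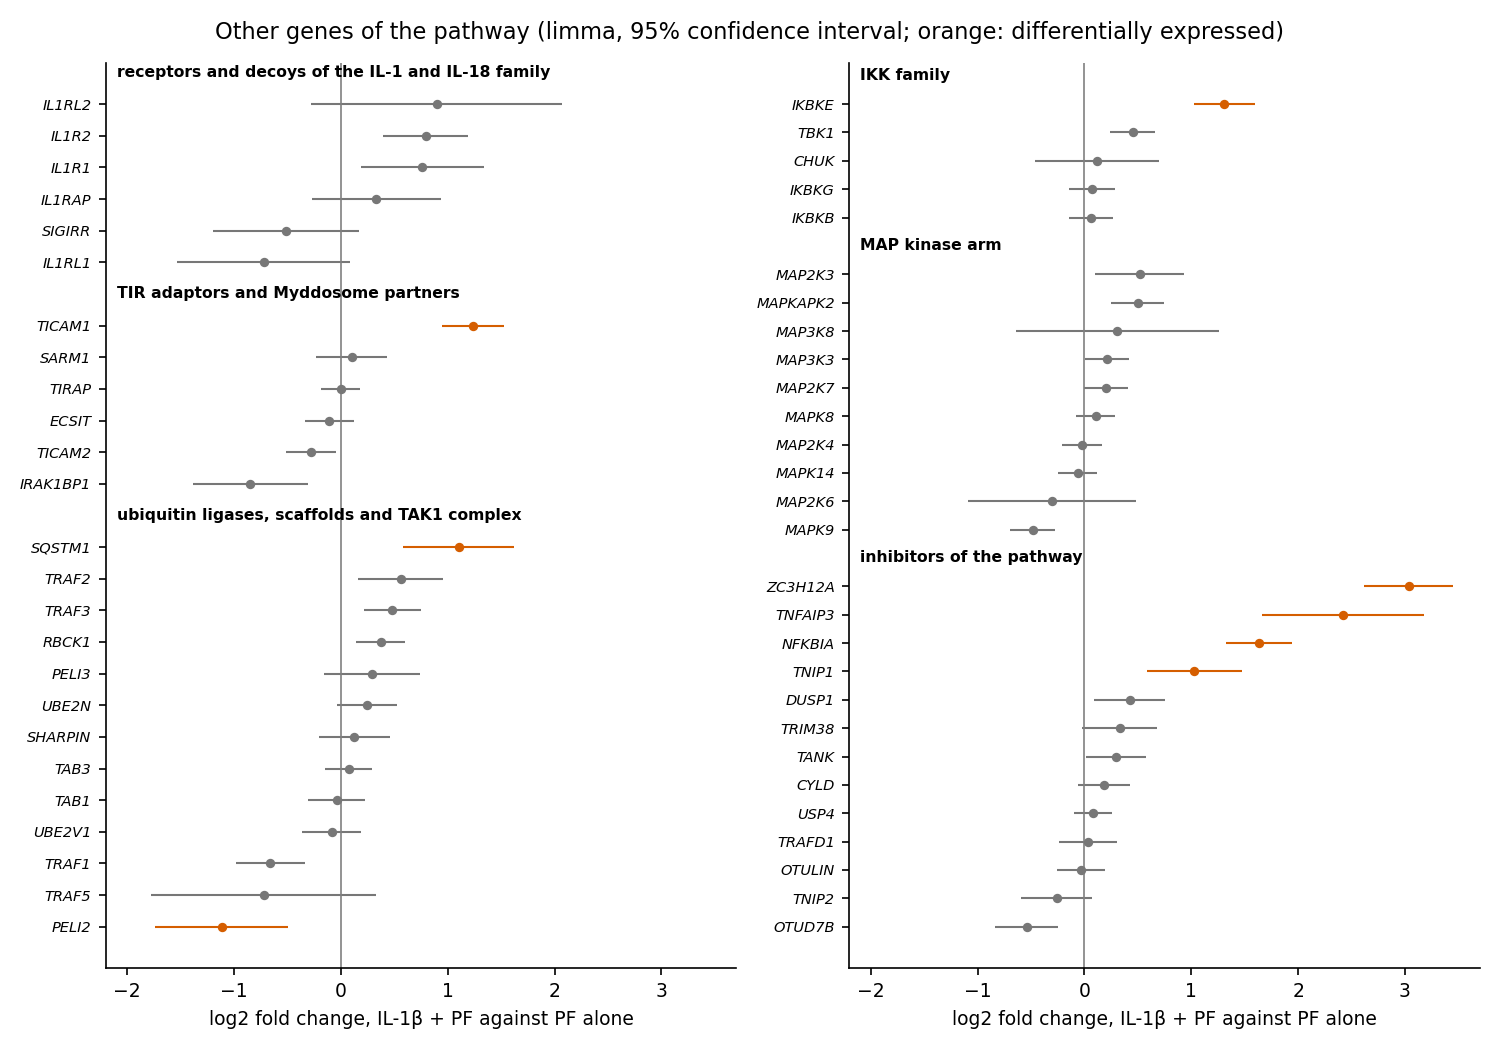
Log2 fold change (horizontal axis) with 95% confidence intervals from limma for the 53 other tested genes of the pathway, grouped in 6 lists; the 8 differentially expressed genes are orange. The largest values are those of ZC3H12A (3.04) and TNFAIP3 (2.42) in the list of inhibitors, and PELI2 (-1.12) is the one orange gene to the left of 0.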

How the data were processed

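Per the labels and the paper's methods, polyA RNA of 10 libraries was sequenced, and the authors ran Salmon (version 1.8, with correction for GC bias) against EquCab3.0 transcripts, summed the estimates to genes and normalized them with DESeq2 (version 1.36). The authors deposited log2 values, recognised as variance-stabilized from their shared lowest value of 3.433. All 10 columns were used. Normalized counts were recovered by inverting the transformation, and reads by the spacing of low values, of which 65.6% to 83.8% per library lay within 0.15 of a whole read. These reads are approximate.

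The limma fit (limma 3.58.1 in R 4.3.3) took genes with a value over the lowest one in 5 or more libraries, used a mean-variance trend and had no donor term, since the study names none. The fit was tested on simulated counts without donor effects, so that test does not bear on the lack of a donor term. Line names in the labels gave the donors, numbered 1 to 5. Libraries of a donor deviated together from their group means (correlation across genes 0.367 to 0.506 over 5 pairs), so a replicate block was fitted beside it. Fits that left out a library or donor kept the same tested genes. Libraries correlated at 0.966 to 0.991 across genes, and none were identical. The RefSeq table of another assembly (TB-T2T) matched all 10 symbols and was used for names and overlapping spans only. The members and lists were chosen with earlier results of these data known. Genes named are the 10 members, at most 3 differentially expressed genes per list by adjusted p, IL1R1, IL1RAP and TIRAP, and 3 genes nearest to the member with the smallest adjusted p. Other genes given with values were chosen after these had been seen.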

Additional observations from a re-analysis of the deposited data

Results flagged for a closer look

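Single libraries that stood away from the rest of their group were looked for in 48 groups of 5 libraries, over the genes named and the difference of IRAK2 and IRAK1. There were 2, where chance gives about 2.4. IL1RAP was at 6.63 in donor 3 with PF alone, against 7.63 to 7.89 in the other 4 libraries. In donor 3 with PF + IL-1β, ZC3H12A was at 11.66, against 12.35 to 12.63 in the others. None of the 10 genes of the IRAK and Myddosome pathway had such a library.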

How the results depend on the processing

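Across 29 alternatives the directions of the 10 genes held, and IRAK2 was differentially expressed in all of them (Log2FC 1.52 to 2.03). The number of differentially expressed genes among the 10, which was 2, was 4 without the minimum fold change, 5 with the replicate block and no minimum, and 1 at an adjusted p below 0.01 (IRAK3 at 0.0117). It ranged from 1 to 2 when a library or donor was left out. Of the 53 pathway genes, 17 were counted without the minimum and 21 with the replicate block and no minimum, and 6 to 8 when a library or donor was left out. Of all genes, 2782 were counted without the minimum, 3996 with the replicate block and no minimum, 719 at an adjusted p below 0.01, 1809 with the replicate block on log2(normalized count + 1), and 762 to 1422 when a library or donor was left out (762, 790 and 777 without donors 1, 2 and 5), against 1202. The replicate block by itself gave 1486. IRAK2 minus IRAK1 was 2.19 with the replicate block (exact sign-flip test over donors, p = 0.0625, its smallest possible value) and 1.78 to 2.40 when a library or donor was left out. TIRAP, at -0.00404, turned to 0.026 after centring on the median, with and without the replicate block, and ranged from -0.037 to 0.033 when a library or donor was left out. Centring moved the median Log2FC of all genes from -0.01 to 0.02. The cause of these changes was not tested.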
